A study of Mus musculus with 12 samples.

Results

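Guidance genes encode the ephrin, semaphorin, Slit and netrin ligands and the Eph, plexin, Robo and Unc5 receptors that read them. They were taken from the deposited count table by symbol (Epha and Ephb, Efna and Efnb, Sema3 to Sema7, Plxn, Robo1 to Robo4, Slit1 to Slit3, Unc5 and Ntn), which gave 70 of 19680 genes. Of these, 53 had at least 50 counts over the 12 libraries together and 47 passed the filter on low counts and were tested. Unc50 and Unc5cl match the symbol rule by name alone and are not known as netrin receptors.

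The study sequenced total RNA from CJ9 mouse embryonic stem cells after 5 days of direction to a germ layer. The groups were arid4b∆ cells directed to endoderm, WT cells directed to endoderm, arid4b∆ cells directed to mesoderm and WT cells directed to mesoderm, with 3 libraries each. Arid4b encodes a subunit of the SIN3 histone deacetylase complex, and the comparison asks what its loss does to cells entering either lineage. The labels name no further allele, no agent used for direction, and neither how the deletion was made nor how many clones carry it, nor whether a group's 3 libraries are 3 cultures. The p-values therefore speak of library-to-library spread, part of which may be technical.

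Ephrins are held on the cell surface, the A class by a lipid anchor and the B class by a membrane span, and bind Eph receptor tyrosine kinases on a neighbouring cell, with signals passing into both cells. Semaphorins act through plexins. The class 3 members are secreted and mostly need a neuropilin as co-receptor, whereas classes 4 to 6 span the membrane. Slits are secreted ligands of Robo receptors, and the secreted netrins, such as netrin-1, are laminin relatives read by Dcc, neogenin and the Unc5 family. These systems were first described in growing axons and also steer cell sorting, migration and vessel growth in the early embryo.

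Counts left after removal of the ribosomal precursor Rn45s numbered 1949299 to 6678893 per library. Mir6236 and Lars2 held 49.7 to 69.5% of them, and the remainder set the precision for all other genes. Levels are CPM values of the counts without Rn45s, on libraries scaled by edgeR, and 3 counts correspond to 0.505 to 1.55 CPM. Arid4b itself was counted at 46.2 ± 4.27 CPM in arid4b∆ endoderm and 41.0 ± 3.97 CPM in WT endoderm, and at 44.6 ± 2.96 CPM in arid4b∆ mesoderm and 42.0 ± 4.77 CPM in WT mesoderm (SD, n = 3). Whole-gene counts cannot check a deletion of part of a gene, so arid4b∆ stands below for the libraries so labelled. The 6 primitive streak markers summed to 18.9 to 24.7 CPM in arid4b∆ endoderm and 235 to 257 CPM in WT endoderm, and to 24.3 to 35.2 CPM in arid4b∆ mesoderm and 224 to 462 CPM in WT mesoderm. The 5 definitive endoderm markers summed to 2.63 to 5.81 CPM in arid4b∆ endoderm and 128 to 208 CPM in WT endoderm, and to 0.615 to 2.24 CPM in arid4b∆ mesoderm and 2.24 to 6.70 CPM in WT mesoderm, with Cer1 at 0 in both mesoderm groups. The 6 endothelial markers summed to 6.10 to 8.14 CPM in arid4b∆ endoderm, with Tal1 at 0, and 59.6 to 76.5 CPM in WT endoderm, and to 10.8 to 14.3 CPM in arid4b∆ mesoderm and 14.5 to 22.9 CPM in WT mesoderm. Flt1 made up most of the endoderm difference, at 6.10, 3.39 and 4.65 CPM in arid4b∆ and 57.9, 72.4 and 53.1 CPM in WT. Kdr had 0, 0 and 0.202 CPM against 3.49, 2.57 and 5.09 CPM. Tek was not lower, at 1.45, 2.03 and 1.21 CPM against 1.45, 1.03 and 0.283 CPM. Pecam1, Cdh5 and Tal1 were at or under 3 counts in every endoderm library. The 8 fibroblast and feeder markers summed to 76.0 to 261 CPM in arid4b∆ endoderm against 18.7 to 73.0 CPM in WT endoderm, and to 88.0 to 209 CPM in arid4b∆ mesoderm against 22.7 to 99.5 CPM in WT mesoderm. In each group the fibroblast sum was highest in library 1. WT mesoderm library 1 lay at −21.0 on the first principal component and the other WT mesoderm libraries at −45.0 and −39.7. In bulk RNA, fewer cells of a type and less RNA per cell cannot be told apart. The part of cell makeup in the guidance gene results was not tested.

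Members were ranked by level per length, in CPM per kb of the union of all annotated exons. That union can be longer than a single transcript, which lowers the value of such genes. Plxna1, a receptor of class 3 and class 6 semaphorins, stood at 12.7 ± 1.24 CPM per kb in arid4b∆ endoderm, 13.6 ± 1.02 in WT endoderm, 14.8 ± 0.477 in arid4b∆ mesoderm and 13.3 ± 1.23 in WT mesoderm (SD, n = 3). It was the highest of the 70 in 3 groups and came behind Unc5b, a netrin receptor, in WT mesoderm, where Unc5b had 17.7 ± 2.62 CPM per kb. An antisense gene covers 10.7% of the exon bases of Plxna1, and whether counting used strand is not given. Sema6a, at 11.7 ± 1.90 CPM per kb, came next to Plxna1 in arid4b∆ endoderm, and the gap was smaller than the SDs. Ntn1 ranked 50 of 70 in arid4b∆ endoderm at 0.152 ± 0.0921 CPM per kb and 15 in WT endoderm at 3.87 ± 0.349. At the low end, Sema3a ranked 60 of 70 in arid4b∆ endoderm at 0.0297 ± 0.0123 CPM per kb, from 6 counts. In WT endoderm it ranked 48 at 0.193 ± 0.0525, from 36 counts.

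**Figure D1:**
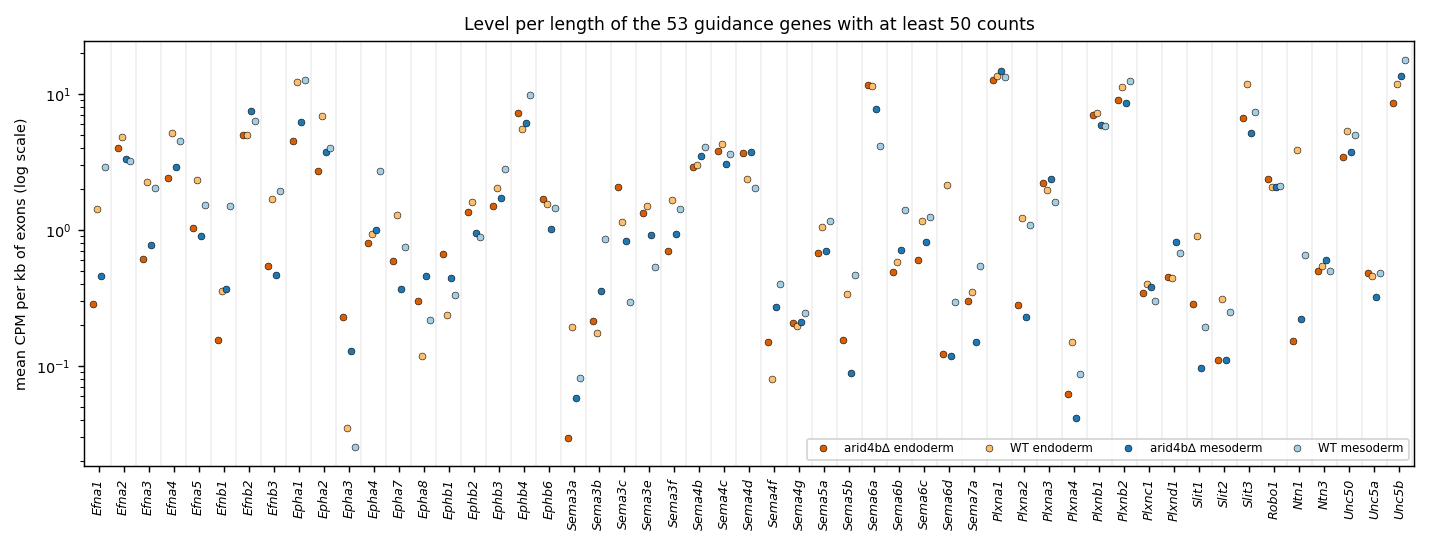
Mean level per length (CPM per kb of exons, log axis) of the 53 guidance genes with at least 50 counts, 1 point per group of 3 libraries. Plxna1 and Unc5b lie at the top, and Ntn1, Sema6d, Plxna2 and Slit1 show WT endoderm (light orange) well above arid4b∆ endoderm (dark orange).

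In the genotype comparison, most of the guidance genes that were called were lower in arid4b∆ cells, in either lineage. In cells directed to endoderm, 24 of the 47 tested members (51.1%) differed at an edgeR adjusted p under 0.05, 4 higher and 20 lower in arid4b∆, where 12.7% of all 11635 tested genes differed, 5.78% higher and 6.92% lower. In cells directed to mesoderm 21 members (44.7%) differed, 4 higher and 17 lower, against 19.1% of all tested genes, 8.93% higher and 10.2% lower. The median log2 fold change of the tested members was −0.33 in endoderm and −0.53 in mesoderm, beside −0.00 and 0.01 over all tested genes. In each called member the 3 arid4b∆ libraries lay all on the same side of the 3 WT libraries. Counting every tested member without overlap, 4 lay above and 22 below WT in endoderm, where 14.7% and 15.5% of all tested genes did, and 5 above and 20 below in mesoderm, where 15.7% and 17.1% did. A member with low arid4b∆ levels could pass the filter only through its WT libraries: of the endoderm calls, Efna1, Ntn1, Sema3a, Slit1 and Sema6d had no arid4b∆ endoderm library past the filter's cutoff of 2.38 CPM, and of the mesoderm calls Efna1, Efna3, Efnb3, Ntn1, Sema5b and Sema6d had no arid4b∆ mesoderm library past it. Without WT mesoderm library 1, 22 members were called in mesoderm, and 2467 genes in all.

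The endoderm and mesoderm comparisons share no libraries. They had 16 called members in common, 66.7% of the endoderm calls and 76.2% of the mesoderm calls, and 15 of these had the same direction. Over all tested genes 867 were called in both, 58.7% of the endoderm calls and 39.0% of the mesoderm calls, 847 of them in the same direction. The shared falls were Efna1, Efna3, Efnb3, Epha1, Epha7, Sema5a, Sema6d, Plxna2, Plxnb2, Slit2, Slit3, Ntn1 and Unc5b, and the shared rises Sema3c and Sema4d. Ephb4 was the member called in opposite directions.

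**Figure D2:**
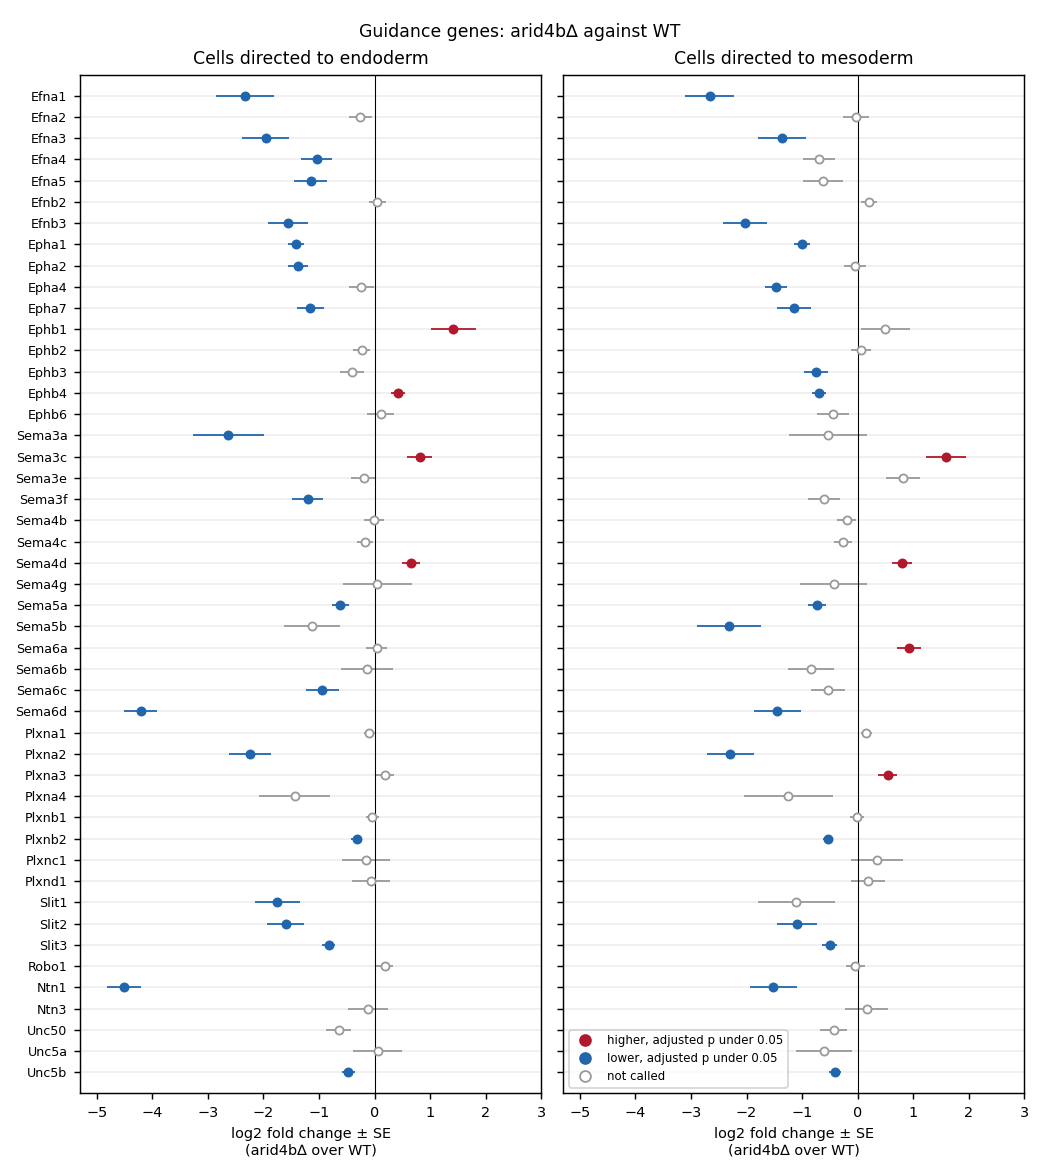
Log2 fold change ± SE (arid4b∆ over WT) of the 47 tested guidance genes, in cells directed to endoderm (left) and to mesoderm (right), 3 libraries a group, coloured where the edgeR adjusted p was under 0.05. Most coloured points lie left of 0, with Ntn1 and Sema6d farthest left in endoderm and Efna1, Sema5b and Plxna2 farthest left in mesoderm.

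Promoter sequences are shown for 4 members that moved the same way in both lineages, 3 that fell (Sema6d, Plxna2, Efna1) and 1 that rose (Sema3c). Each runs from 250 bases before to 50 bases after a RefSeq start on GRCm38.p6, 5′ to 3′ on the gene's strand, with CpG dinucleotides in capitals. The windows are chr2:124089719-124090018 on the plus strand for Sema6d, chr1:194619579-194619878 on the plus strand for Plxna2, chr3:89280902-89281201 on the minus strand for Efna1 and chr5:17574566-17574865 on the plus strand for Sema3c.
Sema6d: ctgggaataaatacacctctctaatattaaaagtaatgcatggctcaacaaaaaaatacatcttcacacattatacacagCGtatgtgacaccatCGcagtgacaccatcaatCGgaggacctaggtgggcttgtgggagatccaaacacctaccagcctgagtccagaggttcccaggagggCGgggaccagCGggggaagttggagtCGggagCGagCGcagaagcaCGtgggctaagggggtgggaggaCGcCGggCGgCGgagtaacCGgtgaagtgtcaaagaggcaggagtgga
Plxna2: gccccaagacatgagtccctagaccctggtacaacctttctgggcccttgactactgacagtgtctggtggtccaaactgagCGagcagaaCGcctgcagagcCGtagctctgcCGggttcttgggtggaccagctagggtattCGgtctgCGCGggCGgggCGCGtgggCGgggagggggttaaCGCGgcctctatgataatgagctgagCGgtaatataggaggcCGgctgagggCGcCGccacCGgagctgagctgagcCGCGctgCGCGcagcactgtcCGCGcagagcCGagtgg
Efna1: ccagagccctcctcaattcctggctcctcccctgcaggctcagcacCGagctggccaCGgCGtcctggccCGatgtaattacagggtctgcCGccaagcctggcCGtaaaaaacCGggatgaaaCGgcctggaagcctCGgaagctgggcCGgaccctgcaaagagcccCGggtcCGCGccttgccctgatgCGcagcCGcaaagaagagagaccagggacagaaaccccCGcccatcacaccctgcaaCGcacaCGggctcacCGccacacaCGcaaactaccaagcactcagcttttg
Sema3c: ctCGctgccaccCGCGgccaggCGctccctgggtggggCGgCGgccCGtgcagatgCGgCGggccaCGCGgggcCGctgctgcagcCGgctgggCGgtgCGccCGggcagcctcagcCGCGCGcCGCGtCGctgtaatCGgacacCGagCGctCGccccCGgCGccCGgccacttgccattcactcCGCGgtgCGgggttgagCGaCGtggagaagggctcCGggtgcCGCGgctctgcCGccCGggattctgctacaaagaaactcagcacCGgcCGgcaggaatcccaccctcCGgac
The 4 windows held 14, 25, 20 and 42 CpGs in that order. RefSeq windows were matched for 61 of the 70 members (77 windows). The median window of the tested members had 23 CpGs and that of all tested genes 21, with 22.5 among members lower in either lineage and 29 among tested members called in neither. On both strands, the TCF/LEF letters ATCAAAG occurred in 0 of the 77 member windows and 3.73% of all 32851 windows, and the T-box letters AGGTGTGA in 1.3% and 1.28%. The FOXA letters TGTTTAC occurred in 0 member windows and 3.65% of all, and the GATA letters AGATAA in 3.9% and 11.2%, where the median window held 19 CpGs among members and 7 among all. The motifs do not contain one another. A match here describes letters in a window only.

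Among the 8 ephrins, 7 were tested, and 5 fell in arid4b∆ endoderm and 3 in arid4b∆ mesoderm, where 6.92% and 10.2% of all tested genes fell. Efna5, a lipid-anchored ligand of EphA receptors, had 2.91, 5.59 and 4.04 CPM in arid4b∆ endoderm and 6.98, 12 and 9.32 CPM in WT endoderm, a log2 fold change of −1.15 ± 0.30 SE (edgeR adjusted p = 0.0117). Efna4 had 3.20, 4.91 and 3.44 CPM in arid4b∆ endoderm and 9.02, 7.72 and 7.91 CPM in WT endoderm (−1.04 ± 0.28, edgeR adjusted p = 0.0159). In neither gene did the groups overlap. Efna1, also an A class ligand, had 0.872, 0.508 and 0.202 CPM in arid4b∆ endoderm and 2.33, 2.4 and 3.11 CPM in WT endoderm, from 7 counts against 33 (−2.33 ± 0.52, edgeR adjusted p = 0.00419). In mesoderm Efna1 had 0.559, 0.615 and 1.33 CPM in arid4b∆ and 4.49, 4.64 and 6.90 CPM in WT, the deepest fall there (−2.67 ± 0.45, edgeR adjusted p = 0.000209). Efna1 was lower in every arid4b∆ library of both lineages, on few counts, and did not pass the filter in a fit of the 6 endoderm libraries alone.

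The other ephrins that fell were low as well. Efna3 fell by 1.96 on the log2 scale in endoderm (edgeR adjusted p = 0.00313) and by 1.36 in mesoderm (adjusted p = 0.0313). Efnb3, a membrane-spanning B class ligand, fell by 1.56 in endoderm (edgeR adjusted p = 0.00541) and by 2.02 in mesoderm (adjusted p = 0.000873). Efna1, Efna3 and Efna4 are neighbours on chromosome 3 (GRCm38.p6), at 89271730 to 89280951, 89313899 to 89322939 and 89333393 to 89338028, and all 3 fell in arid4b∆ endoderm. Efna2, at 8.55 ± 1.55 CPM in arid4b∆ endoderm and 10.3 ± 0.843 in WT endoderm, and Efnb2, the artery-side ligand of Ephb4, at 34.3 ± 3.85 and 34.1 ± 9.27 CPM in the same groups, were called in neither lineage. In mesoderm Efna4 (−0.70 ± 0.29, edgeR adjusted p = 0.103) and Efna5 (−0.62 ± 0.36, adjusted p = 0.254) missed the threshold with overlapping groups.

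Several ephrin calls hung on single libraries. Efna4 was not called in endoderm without WT library 1 (edgeR adjusted p = 0.0534) or arid4b∆ library 3 (adjusted p = 0.0719, the highest of its alternatives, the lowest 0.00338), nor Efna5 without WT library 2 (adjusted p = 0.131, the highest, the lowest 0.000415), and Efna3 moved to −2.65 without arid4b∆ endoderm library 1. In mesoderm Efna3 was not called with DESeq2 (adjusted p = 0.0622) or without WT library 2 or 3 or arid4b∆ library 2 or 3 (edgeR adjusted p between 0.0581 and 0.123, the lowest of its alternatives 0.0103). An antisense gene covers 14.1% of the exon bases of Efna3 and another 10.5% of those of Efna4, and whether counting used strand is not given in the sources used here. If counting ignored strand, reads of a gene and its antisense partner cannot be told apart in these counts.

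Of the 14 Eph receptors 9 were tested. Epha1, a receptor of A class ephrins, had 15.7, 17.6 and 19.4 CPM in arid4b∆ endoderm and 49.8, 42.7 and 50.6 CPM in WT endoderm, a log2 fold change of −1.42 ± 0.14 SE (edgeR adjusted p = 2.96e-07). In mesoderm Epha1 had 25.4, 19.4 and 29.1 CPM in arid4b∆ and 54.9, 52.5 and 42.9 CPM in WT (−1.0 ± 0.14, edgeR adjusted p = 3.64e-05). The groups were far apart in both lineages. On the opposite strand, Zyx overlaps 6.0% of the exon bases of Epha1. Epha7 had 6.10, 4.74 and 6.67 CPM in arid4b∆ endoderm and 11.9, 14.7 and 11.6 CPM in WT endoderm (−1.16 ± 0.25, edgeR adjusted p = 0.00270). In mesoderm Epha7 had 3.08, 4.61 and 3.20 CPM in arid4b∆ and 5.99, 5.15 and 10.9 CPM in WT (−1.15 ± 0.31, edgeR adjusted p = 0.0109), where WT library 3 stood above the other WT libraries and the call was lost without it (adjusted p = 0.219, the highest of its alternatives, the lowest 0.00165).

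Epha2 and Epha4, which both bind A class ephrins, each moved in a single lineage. Epha2 had 14.5, 10.7 and 12.9 CPM in arid4b∆ endoderm and 27.1, 35.0 and 35.0 CPM in WT endoderm (−1.38 ± 0.18, edgeR adjusted p = 1.21e-05). In mesoderm Epha2 overlapped, at 12, 20.0 and 20.5 CPM in arid4b∆ and 17.2, 22.7 and 16.7 CPM in WT (−0.05 ± 0.20, edgeR adjusted p = 0.890). Epha4, which marks boundaries between forming somites, had 8.39, 8.92 and 6.67 CPM in arid4b∆ mesoderm and 21.7, 20.1 and 23.6 CPM in WT mesoderm (−1.47 ± 0.20, edgeR adjusted p = 2.03e-05). In endoderm Epha4 had 6.68, 7.79 and 4.85 CPM in arid4b∆ and 5.53, 8.40 and 8.76 CPM in WT, which overlapped (−0.24 ± 0.23, edgeR adjusted p = 0.565).

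Of the EphB receptors, which bind the membrane-spanning ephrins, Ephb4 was the one with opposite calls. It had 32.5, 35.2 and 33.0 CPM in arid4b∆ endoderm and 25.9, 20.9 and 29.7 CPM in WT endoderm (0.43 ± 0.12, edgeR adjusted p = 0.0265), and 27.1, 30.5 and 27.2 CPM in arid4b∆ mesoderm and 44.4, 44.8 and 48.0 CPM in WT mesoderm (−0.70 ± 0.12, adjusted p = 0.000341). By mean level both arid4b∆ groups (33.6 CPM in endoderm, 28.3 in mesoderm) lay between the WT groups (25.5 in endoderm, 45.7 in mesoderm). The arid4b∆ endoderm libraries all lay above those of arid4b∆ mesoderm, a difference not called (log2 0.221 to 0.312 over its alternatives). The mesoderm fall was called under all of its alternatives, but the endoderm rise was not called with DESeq2 (adjusted p = 0.106) or without WT library 1 or 2 or arid4b∆ library 2 or 3 (edgeR adjusted p between 0.0529 and 0.237, the lowest of its alternatives 0.0128). Ephb3 had 10.6, 12.9 and 10.7 CPM in arid4b∆ mesoderm and 14.7, 18.5 and 23.1 CPM in WT mesoderm (−0.75 ± 0.21, edgeR adjusted p = 0.0166). That call was lost without WT library 3 (adjusted p = 0.187) or arid4b∆ library 1 (0.0605) or 3 (0.0614), with a lowest adjusted p of 0.00231 among its alternatives. Ephb1 rose in arid4b∆ endoderm by a log2 fold change of 1.42 from low levels (edgeR adjusted p = 0.0233), and was not called with DESeq2 (adjusted p = 0.0593) or without WT library 2 or 3 or arid4b∆ library 1 or 3 (edgeR adjusted p between 0.0579 and 0.110, the lowest of its alternatives 0.00647). Ephb2, at 17.2 ± 2.30 CPM in arid4b∆ endoderm and 20.4 ± 1.05 in WT endoderm, and the kinase-inactive Ephb6, at 6.33 ± 1.33 and 5.86 ± 0.232 CPM in the same groups, were called in neither lineage.

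Among the 20 semaphorins, 14 were tested, of which 2 rose and 5 fell in arid4b∆ endoderm and 3 rose and 3 fell in arid4b∆ mesoderm. Of all tested genes 5.78% rose and 6.92% fell in endoderm and 8.93% rose and 10.2% fell in mesoderm. Sema6d, a membrane-spanning ligand of A class plexins (chromosome 2, 124089943 to 124667789), fell furthest of them. It had 2.03, 1.02 and 0.809 CPM in arid4b∆ endoderm and 21.8, 25.9 and 19.8 CPM in WT endoderm, 18.5-fold lower (log2 fold change −4.21 ± 0.29 SE, edgeR adjusted p = 1.46e-09). In mesoderm Sema6d had 1.68, 1.54 and 0.533 CPM in arid4b∆ and 3.49, 2.06 and 3.87 CPM in WT (−1.44 ± 0.43, edgeR adjusted p = 0.0205). WT endoderm was the group with a high level, and the other groups lay at or under 3.87 CPM. In mesoderm the call was lost without WT library 3 (adjusted p = 0.117, the highest of its alternatives, the lowest 0.0105) or arid4b∆ library 3 (0.115), and Sema6d did not pass the filter in a fit of the 6 mesoderm libraries alone.

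Sema3c, a secreted ligand needed in outflow tract formation, rose in both lineages. It had 15.7, 15.4 and 13.1 CPM in arid4b∆ endoderm and 6.98, 9.95 and 7.63 CPM in WT endoderm (0.81 ± 0.23, edgeR adjusted p = 0.0208). In mesoderm its levels were 7.27, 4.31 and 6.13 CPM in arid4b∆ and 3.24, 2.06 and 1.01 CPM in WT (1.58 ± 0.36, edgeR adjusted p = 0.00331). Groups did not overlap in either lineage. The endoderm call was lost with DESeq2 (adjusted p = 0.0635) and without WT library 1 or 3 or arid4b∆ library 1 or 2 (edgeR adjusted p between 0.0520 and 0.0833, the lowest of its alternatives 0.00360), the mesoderm call without WT library 3 (adjusted p = 0.0598, the highest, the lowest 0.000106), and without WT library 1 the mesoderm log2 fold change was 2.19. Sema4d, the ligand of Plxnb1, also rose in both. It had 24.7, 31.0 and 29.3 CPM in arid4b∆ endoderm and 16.6, 18.7 and 18.9 CPM in WT endoderm (0.66 ± 0.16, edgeR adjusted p = 0.0101), and 30.5, 28.0 and 27.2 CPM in arid4b∆ mesoderm and 21.9, 10.3 and 15.0 CPM in WT mesoderm (0.80 ± 0.18, adjusted p = 0.00253). Without arid4b∆ endoderm library 2 the endoderm call was lost (adjusted p = 0.0567, the highest of its alternatives, the lowest 0.000472).

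Sema6a, a ligand of Plxna2 and Plxna4, rose in mesoderm and was not called in endoderm. It had 84.7, 62.8 and 56.3 CPM in arid4b∆ mesoderm and 52.6, 31.9 and 23.9 CPM in WT mesoderm (0.92 ± 0.22, edgeR adjusted p = 0.00394), and in endoderm 83.4, 111 and 113 CPM in arid4b∆ and 97.2, 117 and 85.9 CPM in WT, which overlapped (0.04 ± 0.18, adjusted p = 0.939). The difference between those effects was not called (−0.89 ± 0.28, edgeR adjusted p = 0.159) except with no filter, the replicate block and without WT mesoderm library 1 (adjusted p = 8.68e-06, 0.0469 and 0.00168). Library 1 was the highest in both mesoderm groups. Sema5a, whose extracellular part carries thrombospondin repeats, fell in both lineages. It had 12.3, 14.5 and 12.8 CPM in arid4b∆ mesoderm and 24.7, 19.6 and 20.7 CPM in WT mesoderm (−0.73 ± 0.16, edgeR adjusted p = 0.00214), and in endoderm it fell by 0.61 on the log2 scale (adjusted p = 0.00914; 0.0611 without arid4b∆ endoderm library 3, the highest of its alternatives, the lowest 0.00731).

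The remaining semaphorin calls were of genes with few counts. Sema3f, a secreted ligand read through Nrp2, had 2.61, 5.42 and 2.83 CPM in arid4b∆ endoderm and 7.56, 9.60 and 8.76 CPM in WT endoderm (−1.20 ± 0.28, edgeR adjusted p = 0.00560), and the groups did not overlap. Sema3a, a secreted ligand read through Nrp1, had 6 counts in arid4b∆ endoderm and 36 in WT endoderm (−2.63 ± 0.64, edgeR adjusted p = 0.00783), a call lost without WT library 2 (adjusted p = 0.0737, the highest of its alternatives, the lowest 0.000644) or arid4b∆ library 2 (0.0561). Sema3a did not pass the filter in a fit of the 6 endoderm libraries alone, nor with library sizes that left out Mir6236 and Lars2. Sema6c fell by 0.94 in endoderm (edgeR adjusted p = 0.0431), which was lost with DESeq2 (adjusted p = 0.115) and without WT library 1, 2 or 3 or arid4b∆ library 1 or 2 (edgeR adjusted p between 0.0704 and 0.199, the lowest of its alternatives 0.0188). Sema5b fell by 2.32 in mesoderm, with 7 counts in arid4b∆ and 41 in WT (edgeR adjusted p = 0.00582). Sema3e, Sema4b, Sema4c, Sema4g and Sema6b were called in neither lineage. The largest difference among these was that of Sema6b in mesoderm, at 2.83 ± 1.05 CPM in arid4b∆ and 5.55 ± 2.48 CPM in WT (−0.84 ± 0.41, edgeR adjusted p = 0.174), followed by Sema3e at 8.57 ± 1.33 and 4.98 ± 0.60 CPM in the same groups (0.82 ± 0.30, adjusted p = 0.0634).

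**Figure D3:**
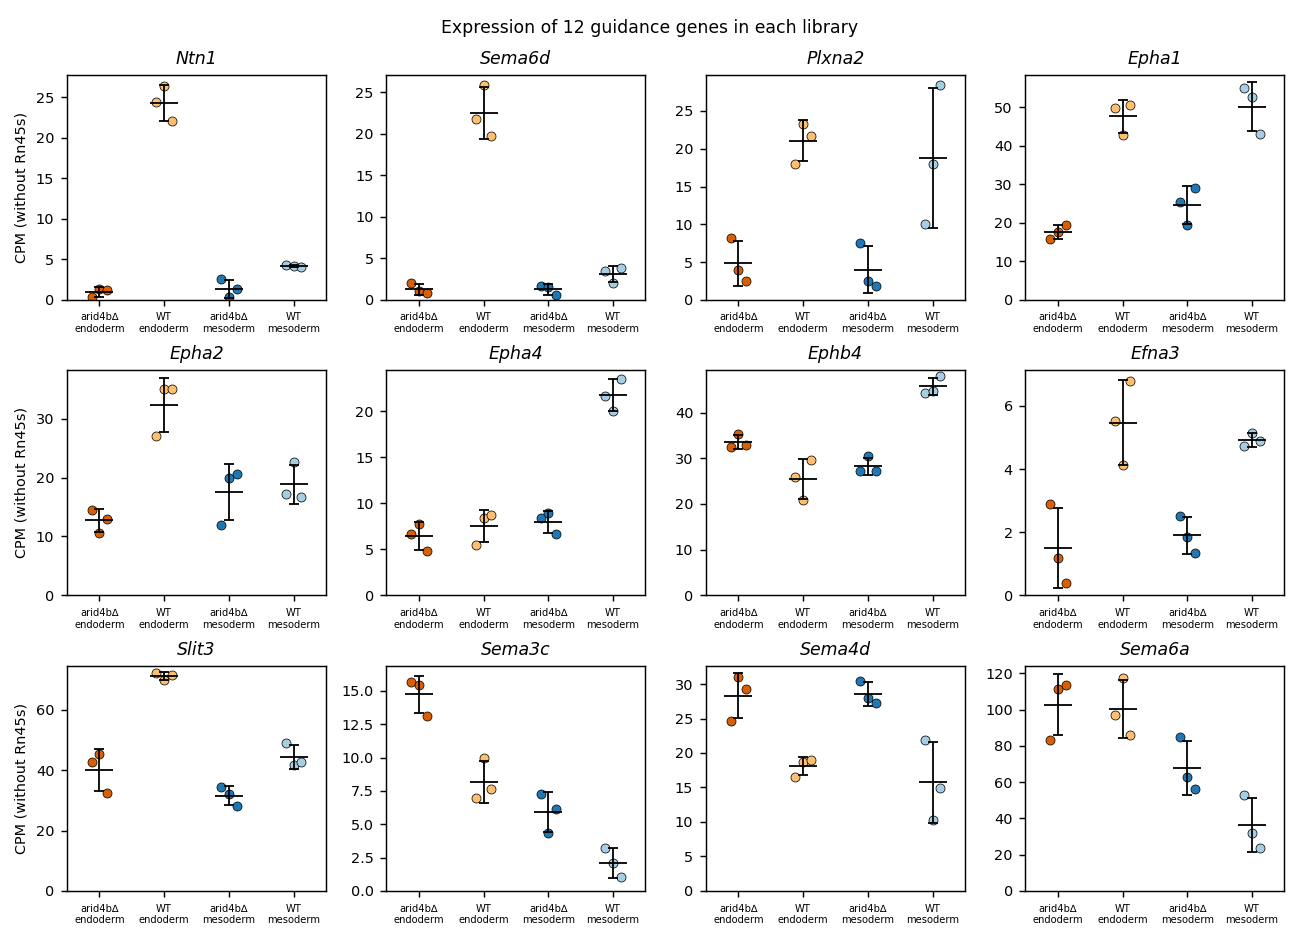
CPM (counts without Rn45s) of 12 guidance genes in each library, with the mean (line) and SD (bars) of the 3 libraries a group, arid4b∆ (dark) left of WT (light) in endoderm (orange) and mesoderm (blue). Ntn1 and Sema6d are highest in WT endoderm, Epha4 in WT mesoderm, and Sema3c and Sema4d lie above WT in arid4b∆ cells of both lineages.

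Plexins, the semaphorin receptors, had 8 tested members of 9. Plxna2 (chromosome 1, 194619791 to 194816869) had 8.14, 3.89 and 2.43 CPM in arid4b∆ endoderm and 18.0, 23.3 and 21.8 CPM in WT endoderm, a log2 fold change of −2.24 ± 0.38 SE (edgeR adjusted p = 0.000287). In mesoderm Plxna2 had 7.55, 2.46 and 1.87 CPM in arid4b∆ and 9.98, 18.0 and 28.4 CPM in WT (−2.29 ± 0.42, edgeR adjusted p = 0.000471). The groups did not overlap, but in both arid4b∆ groups library 1 was the highest, and in both WT groups library 1 was the lowest. Library 1 had the highest fibroblast sum in every group. Without arid4b∆ mesoderm library 1 the mesoderm log2 fold change was −3.18, and without WT mesoderm library 3 it was −1.71. Plxnb2 had 65.1, 68.3 and 65.9 CPM in arid4b∆ mesoderm and 104, 87.1 and 95.1 CPM in WT mesoderm (−0.53 ± 0.10, edgeR adjusted p = 0.000460). In endoderm Plxnb2 fell by 0.33 (adjusted p = 0.0249), which was lost with DESeq2 (adjusted p = 0.0689) and without WT library 1 or 2 or arid4b∆ library 2 or 3 (edgeR adjusted p between 0.103 and 0.113, the lowest of its alternatives 0.0167).

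Plxna3, which transduces class 3 signals with neuropilins, rose in mesoderm, with 19.3, 18.5 and 18.4 CPM in arid4b∆ and 11.2, 12.4 and 14.5 CPM in WT (0.54 ± 0.18, edgeR adjusted p = 0.0395). The call was lost with DESeq2 (adjusted p = 0.118) and without WT library 1 or 2 or any arid4b∆ mesoderm library (edgeR adjusted p between 0.0742 and 0.121, the lowest of its alternatives 0.0334). Plxna1, at 115 ± 11.2 CPM in arid4b∆ endoderm and 123 ± 9.21 in WT endoderm, and Plxnb1, the receptor of Sema4d, at 67.6 ± 6.91 and 69.5 ± 6.37 CPM in the same groups, were called in neither lineage, nor were Plxna4, Plxnc1 and Plxnd1, whose mean levels lay between 0.587 and 5.96 CPM.

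All 3 Slits fell in arid4b∆ endoderm, where 6.92% of all tested genes did. Slit3 was the most abundant and was called in both lineages. In mesoderm it had 34.4, 32.0 and 28.3 CPM in arid4b∆ mesoderm and 49.1, 41.7 and 42.6 CPM in WT mesoderm (−0.50 ± 0.13 SE, edgeR adjusted p = 0.00869). Its endoderm levels were 42.7, 45.5 and 32.4 CPM in arid4b∆ and 72.2, 69.8 and 71.8 CPM in WT (−0.82 ± 0.12, edgeR adjusted p = 3.05e-05). Slit2 had 4.65, 2.2 and 1.62 CPM in arid4b∆ endoderm and 5.24, 9.43 and 9.04 CPM in WT endoderm (−1.60 ± 0.33, edgeR adjusted p = 0.00198). In mesoderm Slit2 fell by 1.09 (edgeR adjusted p = 0.0397), which was lost with limma-voom (adjusted p = 0.0633), DESeq2 (0.0737) and without WT library 2 or 3 or any arid4b∆ mesoderm library (edgeR adjusted p between 0.0684 and 0.116, the lowest of its alternatives 0.0165). Slit1 fell by 1.75 in endoderm (edgeR adjusted p = 0.00497), not called without WT library 2 (adjusted p = 0.112, the highest of its alternatives, the lowest 0.000376) or arid4b∆ library 2 (0.0536). The Slit3 mesoderm call was lost without arid4b∆ library 3 (adjusted p = 0.0549, the highest of its alternatives, the lowest 0.00253). Robo1, the Robo receptor that could be tested, stood at 39.1 ± 8.72 CPM in arid4b∆ endoderm and 34.3 ± 7.65 in WT endoderm, and at 34.2 ± 5.30 CPM in arid4b∆ mesoderm and 34.9 ± 2.11 in WT mesoderm, and was not called (edgeR adjusted p = 0.525 and 0.891). The log2 differences were 0.18 ± 0.16 and −0.05 ± 0.17 SE.

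Ntn1, the secreted netrin-1 (chromosome 11, 68209364 to 68386826), showed the largest genotype difference of the tested members. It had 0.291, 1.35 and 1.21 CPM in arid4b∆ endoderm and 24.4, 26.4 and 22.0 CPM in WT endoderm, from 15 counts against 316, which is 22.8-fold lower (log2 fold change −4.51 ± 0.31 SE, edgeR adjusted p = 1.46e-09). In mesoderm Ntn1 had 2.52, 0.308 and 1.33 CPM in arid4b∆ and 4.24, 4.12 and 4.04 CPM in WT (−1.52 ± 0.42, edgeR adjusted p = 0.0139). All 3 WT endoderm libraries lay above every other library. Without arid4b∆ mesoderm library 2 the mesoderm call was lost (adjusted p = 0.0709, the highest of its alternatives, the lowest 0.00253), and without arid4b∆ mesoderm library 1 the log2 fold change was −2.23. Ntn3 stood at 2.56 ± 0.503 CPM in arid4b∆ endoderm and 2.77 ± 0.640 in WT endoderm and was called in neither lineage.

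Unc5b, the abundant netrin receptor, had 81.6, 82.5 and 89.3 CPM in arid4b∆ mesoderm and 98.0, 106 and 129 CPM in WT mesoderm (−0.41 ± 0.11, edgeR adjusted p = 0.0145). In endoderm Unc5b fell by 0.47 (adjusted p = 0.00959). The endoderm call was lost without WT library 2 (adjusted p = 0.109, the highest of its alternatives, the lowest 0.000674) and the mesoderm call without WT library 3 (0.145, the highest, the lowest 0.00327) or arid4b∆ library 1 (0.0580) or 2 (0.0609). Unc5a, at 2.01 ± 0.767 CPM in arid4b∆ endoderm and 1.91 ± 0.597 in WT endoderm, was called in neither lineage, and neither was Unc50.

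The difference between the endoderm and mesoderm effects was tested as an interaction, in which 5 of the 47 members (10.6%) passed, against 1.4% of all tested genes. Ntn1 fell more in endoderm than in mesoderm, by −2.99 ± 0.63 SE on the log2 scale (edgeR adjusted p = 0.0140), as did Sema6d (−2.77 ± 0.62, adjusted p = 0.0214) and Epha2 (−1.32 ± 0.27, adjusted p = 0.0104). For Ntn1 and Sema6d no arid4b∆ library of either lineage passed the filter's cutoff of 2.38 CPM. WT mesoderm stood at means of 4.13 and 3.14 CPM, so a fall there as deep as in endoderm would end under 3 counts a library. Epha4 fell more in mesoderm (1.23 ± 0.31, adjusted p = 0.0465), and for Ephb4 the effects had opposite signs (1.13 ± 0.18, adjusted p = 0.000940). Epha2 and Ephb4 were called under all 18 alternatives each, with adjusted p up to 0.0491 and 0.00582. Ntn1 was not called without arid4b∆ mesoderm library 1 (−2.27, edgeR adjusted p = 0.242, the highest of its alternatives, the lowest 0.000114). Sema6d was not called without WT endoderm library 2, arid4b∆ endoderm library 2 or 3 or arid4b∆ mesoderm library 1 or 2 (edgeR adjusted p between 0.0546 and 0.174, the lowest of its alternatives 0.00118). Epha4 was lost under 12 of its 18 alternatives, limma-voom and DESeq2 (adjusted p = 0.0593 and 0.131) and each left-out library except WT mesoderm library 1 and arid4b∆ endoderm library 3 (edgeR adjusted p between 0.0540 and 0.211, the lowest of its alternatives 0.0114). The number of members called was 2 without arid4b∆ mesoderm library 1, where 125 genes were called in all. It was 3 without WT endoderm library 2, arid4b∆ endoderm library 2 or arid4b∆ mesoderm library 2, beside 105, 119 and 104 genes. Without WT mesoderm library 1 it was 6, beside 354 genes.

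**Figure D4:**
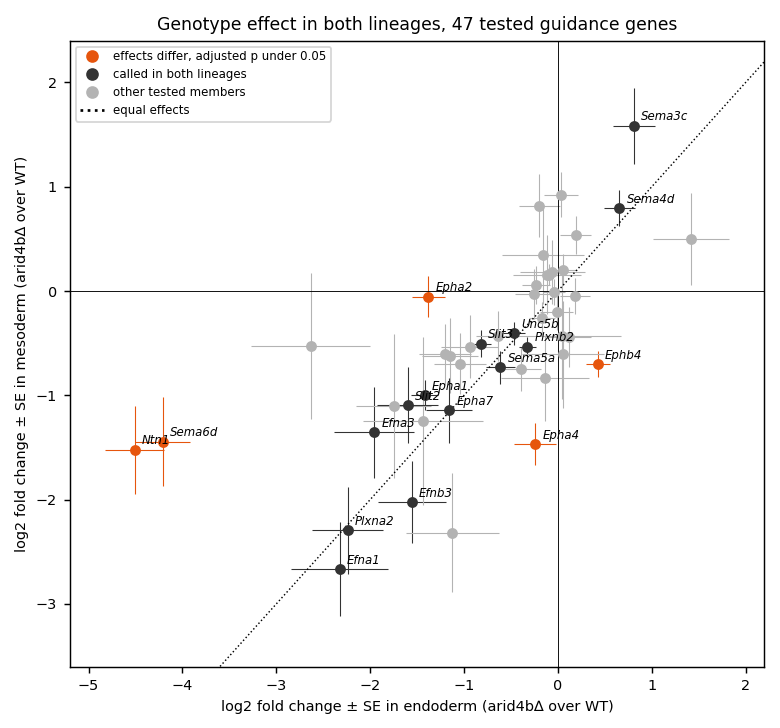
Log2 fold change ± SE (arid4b∆ over WT) of the 47 tested guidance genes in endoderm (x axis) and mesoderm (y axis), 3 libraries a group, with the dotted line at equal effects. Ntn1, Sema6d and Epha2 lie left of the line and Epha4 and Ephb4 below it, and these 5 (orange) are the members whose effects differed at an edgeR adjusted p under 0.05.

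Endoderm was also compared with mesoderm within each genotype. These comparisons share libraries with the genotype comparisons and are given as values of their own. In WT cells 12 of the 47 members (25.5%) were called, 9 higher and 3 lower in endoderm, against 9.84% of all tested genes, 4.41% higher and 5.43% lower. With no filter on low counts 22 members were called, 11 higher and 11 lower, and 1500 genes in all, 652 higher and 848 lower. That setting tests every gene with a count, so the 22 are not out of 47. Sema6d (21.8, 25.9 and 19.8 CPM in WT endoderm, 3.49, 2.06 and 3.87 in WT mesoderm) had a log2 difference of 2.73 ± 0.25 SE (edgeR adjusted p = 1.22e-07). Ntn1 (24.4, 26.4 and 22.0 CPM in WT endoderm, 4.24, 4.12 and 4.04 in WT mesoderm) had 2.56 ± 0.26 (adjusted p = 3.51e-07). Both were higher in endoderm without overlap. In all, 13 members lay above and 7 below without overlap, where 12.2% and 12.4% of all tested genes did. Slit1 (4.95, 7.89 and 3.11 CPM in WT endoderm, 1.75, 0.515 and 1.18 in WT mesoderm) had 2.12 ± 0.44 (edgeR adjusted p = 0.00218), passed the filter through WT endoderm, and was not called without WT endoderm library 2 (adjusted p = 0.0554, the highest of its alternatives, the lowest 4.63e-05). Sema3c (6.98, 9.95 and 7.63 CPM in WT endoderm, 3.24, 2.06 and 1.01 in WT mesoderm) had 2.08 ± 0.33 (edgeR adjusted p = 0.000166), and 2.69 without WT mesoderm library 1.

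Lower in WT endoderm than in WT mesoderm were Epha4 (5.53, 8.40 and 8.76 CPM in endoderm, 21.7, 20.1 and 23.6 in mesoderm; −1.52 ± 0.20, edgeR adjusted p = 1.18e-05), Ephb4 (25.9, 20.9 and 29.7 CPM in endoderm, 44.4, 44.8 and 48.0 in mesoderm) and Unc5b (70.4, 84.2 and 67.2 CPM in endoderm, 98.0, 106 and 129 in mesoderm). Ephb4 differed by −0.87 ± 0.12 (edgeR adjusted p = 4.03e-05) and Unc5b by −0.59 ± 0.11 (adjusted p = 0.00113). Of the rest, Sema3e (1.57, edgeR adjusted p = 0.000381), Sema6a (1.49, 3.00e-05), Epha2 (0.84, 0.00260), Ephb2 (0.83, 0.00129) and Slit3 (0.67, 0.000421) were higher in WT endoderm.

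In arid4b∆ cells 2 members (4.26%) differed between the lineages, 1 higher and 1 lower in endoderm, against 1.86% of all tested genes, 0.954% higher and 0.902% lower. Without overlap, 8 members lay above and 4 below, where 9.59% and 8.62% of all tested genes did. Sema3c (15.7, 15.4 and 13.1 CPM in endoderm, 7.27, 4.31 and 6.13 in mesoderm) had a log2 difference of 1.30 ± 0.25 SE (edgeR adjusted p = 0.00612). Unc5b (47.4, 56.5 and 56.2 CPM in endoderm, 81.6, 82.5 and 89.3 in mesoderm) had −0.65 ± 0.12 (edgeR adjusted p = 0.00424). Both were called in the same direction in WT cells. Ntn1, Sema6d and Epha4, called between the lineages in WT cells, had differences of −0.43 ± 0.54, −0.04 ± 0.51 and −0.29 ± 0.23 in arid4b∆ cells, with adjusted p = 0.822, 0.995 and 0.683, and overlapping groups. Ephb2 (14.5, 18.6 and 18.4 CPM in endoderm, 11.7, 10.5 and 13.6 in mesoderm) kept its WT direction without overlap. So did Slit1, at 2.03, 1.02 and 2.02 CPM in endoderm and 0.559, 0.615 and 0.533 in mesoderm, from 23 and 6 counts. Ephb4 (32.5, 35.2 and 33.0 CPM in endoderm, 27.1, 30.5 and 27.2 in mesoderm) did not overlap either, with its WT order reversed. None of these was called in arid4b∆ cells.

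Genes that work beside these ligands and receptors were counted from lists. Of 23 co-receptors and related ligands, 17 were tested, and 4 fell in arid4b∆ endoderm and 7 in arid4b∆ mesoderm, with no call higher in either, where 6.92% and 10.2% of all tested genes fell. Their median log2 fold change was −0.28 in endoderm and −0.62 in mesoderm, beside −0.00 and 0.01 over all tested genes. Rgma, a ligand of neogenin, had 4.65, 2.71 and 2.22 CPM in arid4b∆ endoderm and 12.8, 12 and 13.0 CPM in WT endoderm (−2.03, edgeR adjusted p = 0.000124). L1cam, an adhesion molecule in class 3 receptor complexes, fell by 1.99 in endoderm (adjusted p = 0.00113). Rgmb fell by 0.90 in endoderm (edgeR adjusted p = 0.00931; 0.0533 without arid4b∆ endoderm library 2, the highest of its alternatives, the lowest 0.000146) and by 1.07 in mesoderm (adjusted p = 0.000992). Nrp1, the co-receptor of Sema3a, fell by 1.18 in endoderm (edgeR adjusted p = 0.0382), but was not called with DESeq2 (adjusted p = 0.0800) or without any WT endoderm library or arid4b∆ library 2 or 3 (edgeR adjusted p between 0.0756 and 0.192, the lowest of its alternatives 7.67e-05), and stood at −1.97 without arid4b∆ library 1.

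Nrp2, the co-receptor of Sema3f, had 9.79, 4.61 and 4.80 CPM in arid4b∆ mesoderm and 23.9, 51.5 and 56.1 CPM in WT mesoderm (−2.76, edgeR adjusted p = 1.32e-05), and 10.2, 3.89 and 1.62 CPM in arid4b∆ endoderm and 2.04, 1.20 and 1.70 CPM in WT endoderm. It was the list's gene called in the interaction (4.33 ± 0.73, edgeR adjusted p = 0.00161; 3.60 without arid4b∆ endoderm library 1). In mesoderm Dscam, a netrin receptor, fell by 2.14 (edgeR adjusted p = 0.00539; 0.0798 without WT mesoderm library 3, the highest of its alternatives, the lowest 0.000290) and Erbb2 by 0.79 (adjusted p = 0.00472). Neo1 (neogenin), which reads both netrin and Rgma, lay between 30.5 and 40.1 CPM in all 12 libraries, and Dcc, the classical netrin receptor, at most at 0.308 CPM, which is under 3 counts.

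Some members were too low for the test. Efnb1, Epha3, Epha8, Sema3b, Sema4f and Sema7a had at least 50 counts in all but did not pass the filter, and their ratios are given with exact 95% intervals that cover counting error only. Epha3, an EphA receptor, had 5, 21 and 5 counts in the arid4b∆ endoderm libraries and 1, 2 and 1 in those of WT endoderm, a ratio of summed levels of 6.95 (2.46 to 27.1), and 3.82 (1.10 to 16.7) without arid4b∆ endoderm library 2. In mesoderm Epha3 had 12 counts in arid4b∆ and 3 in WT (4.5, 1.21 to 24.8), which was 8.94 without WT library 1, 2.83 without arid4b∆ library 1 and 3.38 without WT library 3, with intervals that included 1 for the last 2. Efnb1, a B class ephrin, had 6, 6 and 1 counts in arid4b∆ mesoderm and 6, 11 and 50 in WT mesoderm, a ratio of 0.218 (0.110 to 0.399), and 0.430 (0.192 to 0.940) without WT library 3. In endoderm Efnb1 had 7 counts in arid4b∆ and 16 in WT (0.392, 0.136 to 1.01), an interval that excluded 1 without WT library 3 or arid4b∆ library 1. These ratios thus rested in part on single libraries.

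Epha8 had 23 counts in arid4b∆ mesoderm and 9 in WT mesoderm (2.87, 1.28 to 7.05), with a ratio of 4.33 without WT library 2 and an interval that included 1 without WT library 3 (0.854 to 6.47). In endoderm Epha8 had 19 counts in arid4b∆ and 7 in WT (2.43, 0.979 to 6.85), an interval that excluded 1 without WT library 1 or arid4b∆ library 2. Sema3b had 18 counts in arid4b∆ mesoderm and 46 in WT mesoderm (0.440, 0.240 to 0.774), and 0.253 to 1.01 without WT library 3. Its endoderm counts were 15 in arid4b∆ and 12 in WT (1.12, 0.490 to 2.62), with ratios of 1.83 without WT library 2 and 0.685 without arid4b∆ library 3. Sema7a had 5 counts in arid4b∆ mesoderm and 18 in WT mesoderm (0.312, 0.0906 to 0.873), an interval that included 1 without WT library 2 or 3 or arid4b∆ library 3, and a ratio of 0.180 without arid4b∆ library 2. In endoderm Sema7a had 14 counts in arid4b∆ and 15 in WT (0.836, 0.374 to 1.86). Sema4f had intervals that included 1 in both lineages, at 12 counts in arid4b∆ and 6 in WT endoderm (1.79, and 2.93 without WT library 2) and 15 in arid4b∆ and 26 in WT mesoderm (0.649).

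Under 50 counts in all were Epha5, Epha6, Epha10, Sema3d, Sema3g, Sema4a, Plxnb3, Robo2, Robo3, Robo4, Ntn4, Ntn5, Ntng1, Ntng2, Unc5c, Unc5d and Unc5cl, 17 members, from 42 counts for Robo2 and 43 for Sema4a down to 1 each for Plxnb3 and Unc5cl. They were not tested.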

How the data were processed

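Total RNA from 12 libraries was depleted of ribosomal RNA and sequenced on a HiSeq2000 with a directional kit, per the labels' protocols. The values are whole-number read counts per gene as deposited by the authors; STAR, DESeq2 and mm10 are named in the submitters' processing notes without versions or roles, while the counter, whether it read strand, and the gene annotation were not stated in what was used here. Each of the 12 columns was matched by its name to a sample title, and no per-sample column was left without one (0). Rn45s, which held 79.6 to 82.4% of counts, and 26 genes with a date in place of a count were left out. Mir6236 and Lars2 held 49.7 to 69.5% of the remaining counts. Raw totals ran from 10352411 to 35664057 per library.

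Tests used edgeR 4.0.16 (R 4.3.3), TMM scaling, filterByExpr with a minimum count of 10, a quasi-likelihood fit of the 4 group means with no covariate, and Benjamini-Hochberg adjustment over 11635 genes at 0.05, for 5 comparisons. All p-values in the text are from this fit unless another tool (limma-voom 3.58.1, DESeq2 1.42.0) is named. The SE is the absolute log2 fold change over the root of F, and principal components used log CPM with a prior count of 2. The alternatives were RLE scaling, no filter, library size without Mir6236 and Lars2, the replicate block, limma-voom, DESeq2, a fit of 6 libraries and leaving out each library. The fit was checked on simulated counts.

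The members and lists were chosen with earlier results of these data known. Full values are given for called members with a mean of at least 5 CPM, up to 10 a direction by size of log2 fold change, for all called interactions, and for up to 4 a direction between lineages. List genes are named up to 4 a direction by adjusted p. Some called genes of the cytoplasmic list are not reported here. Of 347 genes without a symbol, 346 were named by Entrez ID from RefSeq. Exon lengths are unions from GENCODE vM21 (70 of 70 members), and positions and promoters are RefSeq on GRCm38.p6. Replicate pairs differed by 2.13 to 17.2 chi-square per degree of freedom, and none were identical. Intervals are exact at 95%, and intervals and the floor of 3 counts cover counting error only.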

Additional observations from a re-analysis of the deposited data

Results flagged for a closer look

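The effect of arid4b∆ differed between the lineages, by the test of the difference itself, for 5 of the 47 tested guidance genes (10.6%), against 1.4% of all tested genes. The endoderm log2 fold change minus the mesoderm one was −2.99 for Ntn1, −2.77 for Sema6d, −1.32 for Epha2, 1.23 for Epha4 and 1.13 for Ephb4. Adjusted p-values from edgeR were 0.0140, 0.0214, 0.0104, 0.0465 and 0.000940 in that order. Epha2 and Ephb4 were called under all 18 alternatives, while Epha4 was lost under 12, Sema6d under 5 and Ntn1 under 1. In the WT groups Ntn1, Sema6d and Epha2 were higher in endoderm and Epha4 and Ephb4 higher in mesoderm, and none of the 5 was called between the lineages in arid4b∆ cells. Those lineage values come from the same libraries as the interaction. The mesoderm effects rested on 15 counts in arid4b∆ against 49 in WT for Ntn1 and 13 against 41 for Sema6d. From such WT levels a fall as deep as in endoderm could not be measured. Groups of 3 libraries are too small for a test of a single outlying library.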

How the results depend on the processing

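Over the called guidance genes and their alternatives, 768 values stayed on the same side of the threshold, 85 lost the call and 0 changed direction, and the lost calls stand beside each gene. Where the filter left a gene untested, this is stated there too. Calls gained by tested members that the main fit did not call are not in these numbers. Against WT, Sema3e gained the call in 3 of 13 alternatives and Sema6b in 1 of 13 in mesoderm, and Unc50 in 1 of 13 in endoderm. Between lineages the most were for Efnb2 and Sema6a in arid4b∆ cells, in 4 of 13 each. Leaving out each library in turn gave 836 to 1321 genes in the endoderm genotype comparison (1478 with all), 1472 to 2467 in mesoderm (2222), 104 to 354 in the interaction (163), 741 to 1391 between WT lineages (1145) and 59 to 237 between arid4b∆ lineages (216). Guidance genes called were 16 to 21, 15 to 22, 2 to 6, 12 to 16 and 2 to 3 in that order. The 16 came without WT endoderm library 2 and the 15 without WT or arid4b∆ mesoderm library 3. Without the filter on low counts the interaction had 377 genes, and the arid4b∆ lineage comparison 483 genes and 4 guidance genes. The WT lineage comparison then had 1500 genes and 22 guidance genes, the latter 11 in each direction. A fit of the 6 arid4b∆ libraries alone called 253 genes, of which 4 were guidance genes. The cause of these shifts was not tested.

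Replicate numbers are shared by all groups. The correlation of same-numbered libraries was 0.17, 0.09 and 0.05 in the endoderm genotype comparison, 0.12, 0.01 and 0.07 in mesoderm, 0.18, 0.10 and 0.05 between WT lineages and 0.18, 0.09 and 0.19 between arid4b∆ lineages. In no comparison did all 3 pairs pass 0.1, and the labels name no shared batch, so the numbers were not taken to pair the libraries, although all 12 values were positive and every library correlated best with its own number between lineages. In both genotype comparisons arid4b∆ library 3 correlated better with WT library 2 (0.10 and 0.08). With the replicate block the genotype comparisons called 1807 genes in endoderm and 2476 in mesoderm. The interaction then called 255, the WT lineage comparison 1310 and the arid4b∆ lineage comparison 377. Guidance genes numbered 24, 22, 6, 14 and 4 over the 5 comparisons in that order. Depth limits the low members: 3 counts are 0.505 to 1.55 CPM.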

Other observations

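Cytoplasmic proteins carry guidance signals from receptor to cytoskeleton. Of 53 listed, 50 were tested: 4 rose and 3 fell in arid4b∆ endoderm, where 5.78% and 6.92% of all tested genes did, and 2 rose and 7 fell in arid4b∆ mesoderm, where 8.93% and 10.2% did. Their median log2 fold change was −0.01 in endoderm and −0.09 in mesoderm, and none was called in the interaction by edgeR. Dock1 had 33.7, 42.3 and 38.2 CPM in arid4b∆ endoderm and 64.6, 68.8 and 80.0 CPM in WT endoderm (−0.88, edgeR adjusted p = 1.16e-05), and it fell by 0.90 in mesoderm (edgeR adjusted p = 1.46e-05). Dock1 was called in both lineages under all of its alternatives.

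In endoderm Mical2, of the family that oxidises actin, rose by a log2 fold change of 1.96 (edgeR adjusted p = 0.000622), Vav3 by 1.70 (0.00652) and Srgap3, a partner of Robo receptors, by 0.70 (0.0441, lost in 7 of 13 alternatives). Pdzrn3 fell by 1.37 (edgeR adjusted p = 0.00185). In mesoderm Enah rose by 0.35 (edgeR adjusted p = 0.0162, and 0.102 without arid4b∆ library 3). Dpysl5 fell by 1.06 (edgeR adjusted p = 5.57e-05), Grip1 by 0.71 (0.00767, and 0.0563 without WT library 3) and Src by 0.59 (0.0154, and 0.0871 without arid4b∆ library 3).

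The remaining marker lists had the following summed levels. The 6 neural markers summed to 111 to 119 CPM in arid4b∆ endoderm and 122 to 130 CPM in WT endoderm, and to 72.0 to 87.4 CPM in arid4b∆ mesoderm and 69.7 to 97.3 CPM in WT mesoderm. Nes alone made up most of each neural sum, at 66.9 to 126 CPM over the 12 libraries. The 6 extraembryonic endoderm markers summed to 17.2 to 45.3 CPM in arid4b∆ endoderm and 23.1 to 49.5 CPM in WT endoderm, and to 29.2 to 44.7 CPM in arid4b∆ mesoderm and 31.4 to 77.6 CPM in WT mesoderm. In endoderm Gata4 had 7.26, 3.39 and 3.84 CPM in arid4b∆ and 10.2, 11.8 and 12.7 CPM in WT. Dab2 went the other way, at 9.30, 6.10 and 5.46 CPM against 5.24, 2.23 and 2.54 CPM. Of the 4 tested, 1 was called lower in each lineage and none higher, where 6.92% and 10.2% of all tested genes fell. The 5 pluripotency markers summed to 332 to 362 CPM in arid4b∆ endoderm and 329 to 384 CPM in WT endoderm. In mesoderm they summed to 340 to 377 CPM in arid4b∆ and 299 to 354 CPM in WT. Pou5f1 alone made up most of each sum, and single markers moved in opposite directions. In endoderm Nanog had 44.2, 42.8 and 39.8 CPM in arid4b∆ and 93.1, 90.5 and 107 CPM in WT. Sox2 went the other way, at 36.03, 39.62 and 46.52 CPM against 23.28, 21.43 and 20.34 CPM. Of the 5 tested, 2 were called higher and 1 lower in endoderm, and 1 higher and 1 lower in mesoderm.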
